A study of Homo sapiens with 6 samples.

Results

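The genes described are 10 of the mTOR pathway in BT549, a mesenchymal triple-negative breast cancer cell line: the kinase gene MTOR, its partners RPTOR, RICTOR, AKT1S1 and DEPTOR, the upstream genes TSC1, TSC2, RHEB and DDIT4, and LARP1, which acts downstream. They were taken from the deposited gene table by symbol. All 10 were among its 19923 genes, and all 10 passed the filter on low counts, which 14086 genes passed. RNA was sequenced from 3 libraries of control cells and 3 of cells treated with an agent labelled ENL. The labels do not spell out the agent and give no dose, time or vehicle, and they do not say whether the libraries of a group were separate cultures, so p-values measure the spread between these libraries, which may be technical.

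The mTOR kinase works in a pair of complexes. In mTORC1 it is joined by raptor (RPTOR) and promotes protein synthesis and growth when nutrients and growth factors are present, and in mTORC2 it is joined by rictor (RICTOR) and phosphorylates AKT. The small GTPase RHEB switches mTORC1 on at the lysosome, the TSC1 and TSC2 proteins switch RHEB off, PRAS40 (AKT1S1) and DEPTOR are inhibitory partners of the kinase, and REDD1 (DDIT4) is a stress-induced protein that lowers mTORC1 activity through TSC. LARP1 is an RNA-binding protein under mTORC1 control that binds mRNAs with a 5' terminal oligopyrimidine (TOP) sequence, most of which encode ribosomal proteins and translation factors. These activities are set largely on the proteins, by phosphorylation and location, and mRNA levels do not measure them.

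Library totals were 74457932 to 85310759 units of estimated count, where 1 sequenced fragment was worth about 4 units. The mesenchymal marker VIM lay between 2481 and 6289 CPM (the count scaled to the library's normalised total), while the epithelial markers CDH1 and EPCAM did not exceed 0.358 and 0.249 CPM, although the labels name an epithelial tissue of origin. Of the 8 tested markers of breast epithelium and of BT549, 4 rose (50%, beside 20% of all genes tested). These were VIM, CDH2, FN1 and the keratin gene KRT8 (15.8 ± 2.42 to 38.0 ± 4.20 CPM), which shares 525 exon bases with KRT18 on the opposite strand. The epithelial markers CDH1, KRT18, KRT19 and ESR1 did not pass, with log2 fold changes of -0.23, -0.13, -0.02 and -0.19. Of the 6 markers of other cell types, PTPRC, CD3E, PECAM1 and ADIPOQ were at or near 0, CD68 (54.0 to 68.3 CPM) and VWF (5.45 to 8.54 CPM) were detected, and 0 were called. ENL library 3 differed from ENL libraries 1 and 2, with a score of 55.8 against -22.0 and -26.3 on a principal component that held 14.3% of the variance.

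MTOR and RPTOR transcripts were lower in ENL, and those of RICTOR, RHEB, DEPTOR, TSC1, TSC2 and DDIT4 were higher. By the quasi-likelihood F test of edgeR, adjusted over all genes by the Benjamini-Hochberg method, 6 of the 10 members were higher and 2 were lower at an adjusted p below 0.05, and AKT1S1 and LARP1 did not pass. Over all genes tested, 20% were higher, 18.4% were lower and 38.4% were called in either direction. For all 10 members the ranges of the groups did not overlap (6 higher, 4 lower), which was the case for 54% of all genes tested. The median log2 fold change was 0.42 over the members and -0.02 over all genes tested. Without ENL library 3, 5 members were higher and 3 lower. In bulk RNA, a change in every cell and a change in the share of cells that hold a transcript cannot be told apart.

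**Figure D1:**
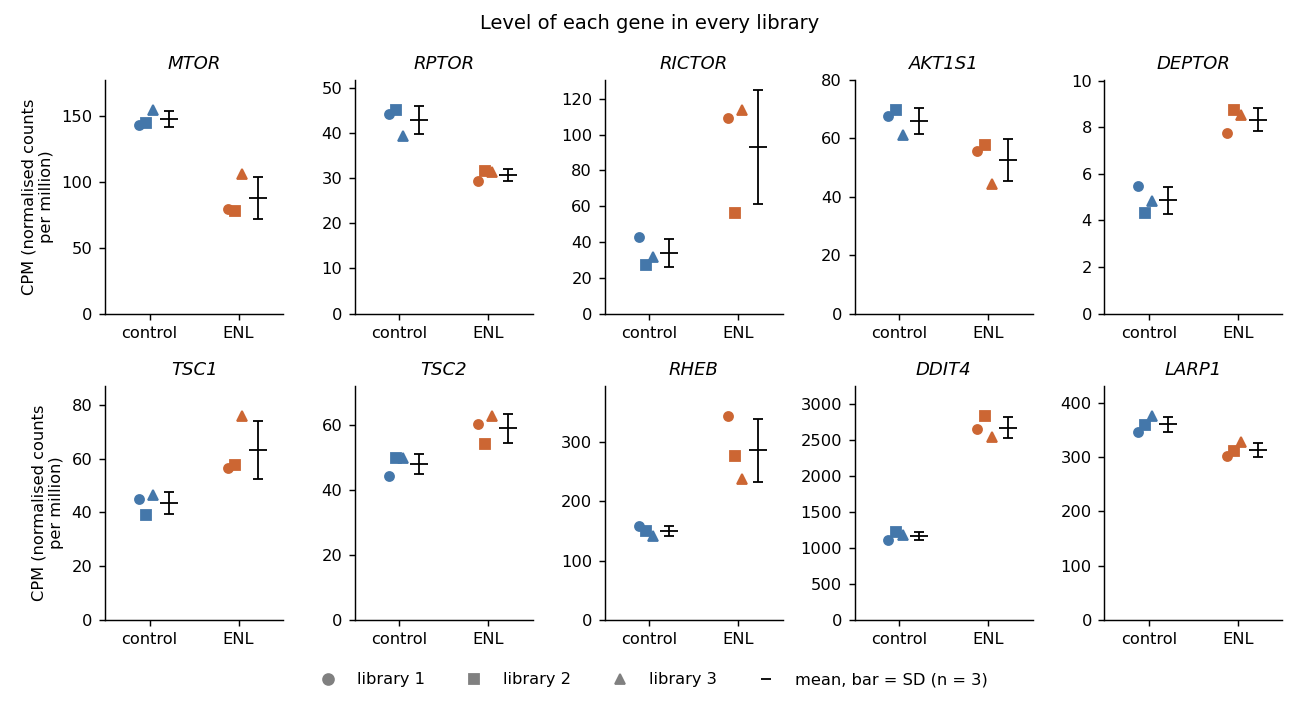
Level of each gene in every library, in CPM on a linear axis that starts at 0 and differs between panels. Points are libraries, and marker shape gives the library number, which was not used to pair the groups. Bars are mean and SD (n = 3). Control and ENL points do not overlap in any panel, and relative to its mean the spread is widest for RICTOR in ENL (56.4 to 114 CPM).

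MTOR (ENSG00000198793, chromosome 1, 11106535 to 11262507, minus strand, GRCh38) encodes the kinase itself. Its level was 143, 145 and 155 CPM in control libraries 1, 2 and 3, and 79.2, 78.1 and 106 CPM in ENL libraries 1, 2 and 3. The control libraries were close together, and ENL library 3 lay between them and the other ENL libraries. MTOR fell by 0.75 ± 0.13 on the log2 scale (SE, n = 3 per group, adjusted p = 0.00475), to 0.595 times the control level. The 95% interval of the log2 fold change was -1.06 to -0.44, and the value without ENL library 3 was -0.89.

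RPTOR (ENSG00000141564, chromosome 17, 80544819 to 80966371, plus strand), whose product brings substrates to mTORC1, moved in the same direction. It was measured at 44.1, 45.0 and 39.2 CPM in control and 29.3, 31.6 and 31.3 CPM in ENL, so that ENL library 3 did not stand out here. RPTOR fell by 0.48 ± 0.09 on the log2 scale (adjusted p = 0.00741). Both genes kept their call in all 17 other settings, library left out or scaling included.

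RICTOR (ENSG00000164327, chromosome 5, 38937919 to 39074408, minus strand), the defining subunit of mTORC2, showed the largest change of the 10 members and also the largest spread. Control libraries held 42.8, 27.3 and 31.5 CPM and ENL libraries 109, 56.4 and 114 CPM. ENL library 2 was well below the other ENL libraries but above every control library. RICTOR rose by 1.46 ± 0.31 on the log2 scale (95% interval 0.70 to 2.22, adjusted p = 0.0131), and the call was lost without control library 3 (adjusted p = 0.0536). It shares 229 exon bases with OSMR on the opposite strand, which stood at 291 ± 11.8 CPM in control (SD, n = 3) and 220 ± 16.5 CPM in ENL.

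The other subunits of the complexes were not uniform. MLST8, a subunit common to both complexes, rose by 0.64 ± 0.14 (adjusted p = 0.0107), from 26.9 ± 1.31 to 41.8 ± 6.85 CPM, and by 0.42 under scaling by library totals. MAPKAP1, which encodes the mTORC2 subunit SIN1, fell by 0.59 ± 0.12 on the log2 scale (adjusted p = 0.00893), from 78.4 ± 3.06 to 51.9 ± 7.68 CPM. In this list of 6 further complex and assembly genes, 2 rose (MLST8 and PRR5L, 33.3%, beside 20% of all genes tested). In the same list 1 fell (16.7%, beside 18.4%) and 3 did not pass, with a median log2 fold change of 0.30. That median was 0.089 with library totals (beside -0.23 for all genes), and 0.18 and 0.17 without control library 1 and ENL library 2. The call of PRR5L, at 2.02 ± 0.325 CPM in control, was lost in 11 of 16 other settings, each of the 6 that leave out a library among them (adjusted p up to 0.135 over all settings).

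Of the genes of the inhibitory partners, DEPTOR rose and AKT1S1 did not pass. DEPTOR (ENSG00000155792, chromosome 8, 119873717 to 120050913, plus strand) was the scarcest member, with 5.47, 4.31 and 4.82 CPM in control and 7.76, 8.73 and 8.51 CPM in ENL. All ENL libraries were above all control libraries, and DEPTOR rose by 0.78 ± 0.15 on the log2 scale (adjusted p = 0.00628). Its counts were 349 to 478 units in control and 530 to 707 in ENL, so that each value rested on far fewer fragments than those of the other members.

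AKT1S1 (ENSG00000204673, chromosome 19, 49869033 to 49878459, minus strand), which encodes PRAS40, stood at 67.5, 69.6 and 61.0 CPM in control and 55.5, 57.8 and 44.4 CPM in ENL. The groups did not overlap, with ENL library 3 lowest. Its log2 fold change of -0.33 ± 0.12 did not pass the test (95% interval -0.62 to -0.04, adjusted p = 0.0713), and was -0.21 without ENL library 3 (adjusted p = 0.109). It shares 392 exon bases with TBC1D17 on the opposite strand, which stood at 38.9 ± 1.37 CPM in control and 80.4 ± 9.27 CPM in ENL. AKT1S1 was called lower with length and GC content corrected for (adjusted p = 0.0479).

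TSC1 (ENSG00000165699, chromosome 9, 132891348 to 132946874, minus strand) and TSC2 (ENSG00000103197, chromosome 16, 2047465 to 2089487, plus strand) encode hamartin and tuberin, the complex that inactivates RHEB. TSC1 levels were 45.1, 38.9 and 46.4 CPM in control and 56.7, 57.6 and 75.8 CPM in ENL, with ENL library 3 well above the rest. TSC1 rose by 0.54 ± 0.14 on the log2 scale (adjusted p = 0.0214). That call was lost without control library 1 (adjusted p = 0.0569) or control library 2 (0.0739), under scaling by library totals (0.34, adjusted p = 0.138) and in edgeR's test against a 1.2-fold change (0.0660).

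TSC2 was higher by less, with 44.4, 49.8 and 49.9 CPM in control and 60.2, 54.0 and 62.6 CPM in ENL. The lowest ENL library lay just above the highest control library. Its log2 fold change was 0.30 ± 0.10 (adjusted p = 0.0484), and the call was lost in 12 of 17 other settings, among them those without control library 1, 2 or 3 (adjusted p = 0.148, 0.0981 and 0.0994) or ENL library 1 or 3 (0.118 and 0.0711). Scaled by library totals the value was 0.092. TSC2 shares 778 exon bases with PKD1 on the opposite strand, which stood at 107 ± 7.54 CPM in control and 145 ± 31.7 in ENL. The TSC complex has a further subunit, TBC1D7, whose transcript fell by 0.76 ± 0.15 on the log2 scale (adjusted p = 0.00751), from 16.3 ± 2.34 to 9.68 ± 0.922 CPM, and which shares 700 exon bases with PHACTR1 on the opposite strand.

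RHEB (ENSG00000106615, chromosome 7, 151466012 to 151520120, minus strand), the direct activator of mTORC1, was one of the more abundant members. It was found at 158, 149 and 141 CPM in control and at 343, 277 and 238 CPM in ENL. The ENL libraries were far apart from one another, but the lowest of them was well above every control library. RHEB rose by 0.94 ± 0.14 on the log2 scale, or 1.91-fold (adjusted p = 0.00242), with values between 0.73 and 1.07 in the 17 other settings, all of them called.

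DDIT4 (ENSG00000168209, chromosome 10, 72273920 to 72276036, plus strand), which encodes REDD1, was the most abundant member. Control libraries contained 1107, 1217 and 1182 CPM and ENL libraries 2648, 2825 and 2533 CPM. The spread within each group was small beside the difference, and DDIT4 rose by 1.19 ± 0.08 on the log2 scale, or 2.28-fold (95% interval of the log2 value 0.99 to 1.39, adjusted p = 0.000142). It kept its call in all 17 other settings, between 0.98 and 1.24. An antisense gene, DDIT4-AS1, shares 847 exon bases with it, and since no source used here says whether strand was kept, reads of such opposite pairs cannot be told apart.

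DDIT4 is known to be induced by hypoxia and by endoplasmic reticulum and amino acid stress, so the bases before its start are shown with matches to 2 motifs. They are ACGTG, 1 form of the core letters of a hypoxia response element, and an amino acid response element, TGATGNAA, both searched on either strand. Other forms of the hypoxia core, such as GCGTG, were neither searched nor marked. The sequence is that of RefSeq (GRCh38.p14, chr10:72273674-72273923, plus strand), 250 bases that end just before the annotated start, with matches in capitals.
DDIT4: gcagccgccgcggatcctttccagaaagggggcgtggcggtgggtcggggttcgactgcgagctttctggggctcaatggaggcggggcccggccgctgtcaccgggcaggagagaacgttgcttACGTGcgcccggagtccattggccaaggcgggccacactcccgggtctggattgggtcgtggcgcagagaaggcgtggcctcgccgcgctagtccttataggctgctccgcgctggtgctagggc
It held 1 match to ACGTG, whose first base lies 125 bases before the start, and none to the other motif in this window. Of the 8 members with an entry (all but AKT1S1 and DEPTOR), 4 held ACGTG (RICTOR, TSC2, RHEB and DDIT4) and 1, TSC2, held TGATGNAA, counted over any annotated start of a gene, against 21.7% and 3.89% of all 27305 genes counted in the same way (18.5% and 3.14% of all 35116 promoters of this length). A match describes the letters only.

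**Figure D2:**
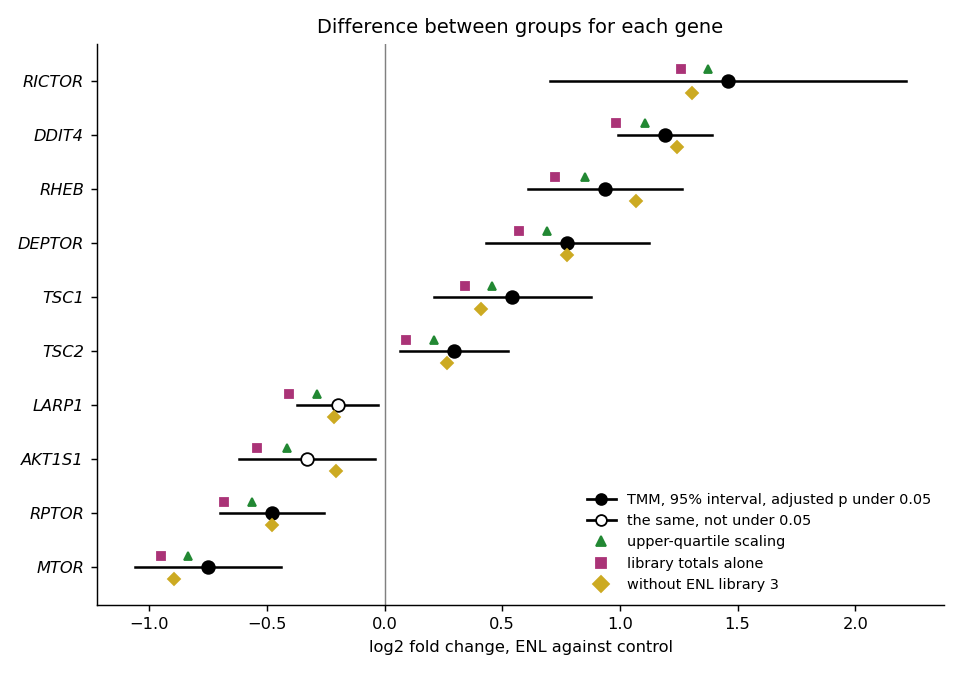
Log2 fold change of each gene, ENL against control; black points and lines are the edgeR estimate after trimmed-mean (TMM) scaling with its 95% interval, filled where the adjusted p was below 0.05, and coloured marks are 3 other settings. The 2 other scalings shift every gene to the left by a similar amount, and RICTOR has the widest interval (0.70 to 2.22).

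The scale of the libraries bears on all of these values alike. Under scaling by library totals alone the median over all genes tested was -0.23 on the log2 scale, against -0.02 under the trimmed-mean scaling used here, and -0.11 under upper-quartile scaling. Of all genes tested, 1804 were called higher and 3996 lower with library totals, and 2356 and 3136 with the upper quartile, against 2819 and 2585. Each member shifted in that direction, so that 4 were called higher and 4 lower with library totals, and 5 and 4 with the upper quartile. The added lower calls were AKT1S1 (adjusted p = 0.00707 and 0.0379) and LARP1 (0.00822 and 0.0204). No member changed its direction with the scaling.

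Ratios of a pair of members within a library do not depend on scaling. The log2 ratio of RICTOR to RPTOR counts was -0.05, -0.72 and -0.32 in control libraries 1, 2 and 3 and 1.90, 0.84 and 1.86 in ENL libraries 1, 2 and 3, a difference of 1.89 between the means. The ratio of DDIT4 to MTOR rose from 2.98 ± 0.07 to 4.94 ± 0.32 (SD, n = 3), and that of DEPTOR to MTOR from -4.93 ± 0.19 to -3.38 ± 0.24, without overlap of the groups. In each of these 3 ratios every ENL library was above every control library, which gives p = 0.1 in the exact two-sided permutation test, the smallest that 3 against 3 libraries allow (0.15 after adjustment over 6 ratios), so no ratio could reach 0.05.

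The ratio of LARP1 to MTOR was also higher in every ENL library (1.29 ± 0.02 against 1.85 ± 0.20, exact p = 0.1). Those of AKT1S1 to MTOR and of TSC1 to TSC2 overlapped between the groups (exact p = 0.3 and 0.2). For AKT1S1 to MTOR the overlap came from ENL library 3, at -1.26, beside -0.51 and -0.43 in ENL libraries 1 and 2 and -1.34 to -1.06 in control.

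**Figure D3:**
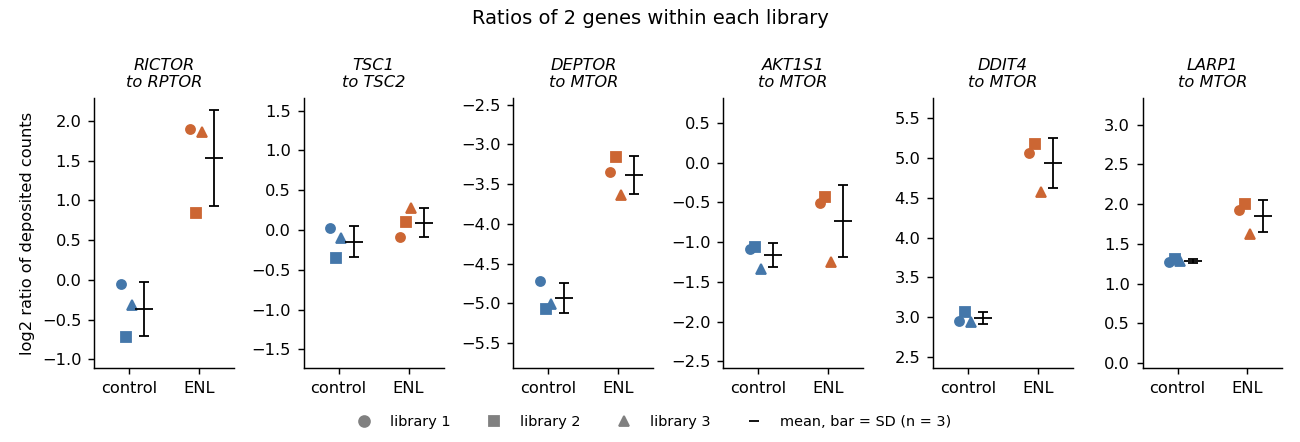
Log2 ratio of the deposited counts of 2 genes within each library; every panel spans the same range on its axis, points are libraries and bars are mean and SD (n = 3). The groups are apart for RICTOR to RPTOR, DEPTOR to MTOR, DDIT4 to MTOR and LARP1 to MTOR, and overlap for TSC1 to TSC2 and AKT1S1 to MTOR.

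Levels can be compared between genes only per length, here as CPM per kilobase of the longest annotated transcript. In control the order was DDIT4 (668 ± 32.1, SD, n = 3), RHEB (72.0 ± 4.0), LARP1 (54.7 ± 2.22), AKT1S1 (18.1 ± 1.24), MTOR (17.0 ± 0.699), TSC2 (7.57 ± 0.498), RPTOR (6.68 ± 0.486), TSC1 (4.99 ± 0.459), RICTOR (3.55 ± 0.840) and DEPTOR (1.89 ± 0.226). The ranges of neighbours in that order overlapped for AKT1S1 and MTOR, TSC2 and RPTOR, and TSC1 and RICTOR. In ENL the first 5 kept their places, RICTOR moved from place 9 to place 6 (9.75 ± 3.33) and RPTOR from 7 to 9 (4.79 ± 0.197). There the ranges of AKT1S1, MTOR, RICTOR, TSC2 and TSC1 overlapped from each to the next. RPTOR at 6.68 stood above RICTOR at 3.55 CPM per kilobase in control, and below it in ENL.

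A list of 19 genes held kinase, lipid signalling and AMPK genes upstream of TSC, the TSC subunit gene TBC1D7 and DDIT4L. Of these, 4 rose (21.1%, beside 20% of all genes tested), 2 fell (10.5%, beside 18.4%) and 13 did not pass. The 2 that fell were TBC1D7 and DDIT4L, so no kinase, lipid signalling or AMPK gene of the list was called lower. The median log2 fold change was 0.17. Under scaling by library totals it was -0.040, beside -0.23 for all genes. Without ENL library 3, 5 rose and 3 fell, and without ENL library 2, 6 rose and 2 fell (median 0.11). PIK3R1, the PI3K regulatory subunit p85 alpha, was at 49.6, 41.0 and 47.7 CPM in control and 136, 112 and 181 CPM in ENL, and rose by 1.63 ± 0.18 (adjusted p = 0.000855). AKT1, the kinase that inhibits TSC2 and PRAS40, did not pass (-0.22 ± 0.12 on the log2 scale, adjusted p = 0.209), and was at -0.33 without ENL library 3 (adjusted p = 0.0239) and -0.13 without ENL library 1. DDIT4L, the paralogue of DDIT4, went the other way from it and fell by 2.06 ± 0.41, at a low level of 1.04 ± 0.151 CPM in control and 0.249 ± 0.0896 in ENL (adjusted p = 0.00771).

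Genes of the lysosomal amino acid branch, which bring mTORC1 to the lysosome when amino acids are present, moved in both directions. Of 31, 10 rose (32.3%, beside 20% of all genes tested), 7 fell (22.6%, beside 18.4%) and 14 did not pass, with a median of -0.06. With library totals 8 rose and 12 fell, beside 1804 and 3996 of all 14086 genes tested. The median of the list was then -0.26, and that of all genes -0.23. The list median was above 0 when control library 2 (0.11) was left out, or either of ENL libraries 1 and 2 (0.023 and 0.073). SESN2, a stress-induced leucine sensor that restrains mTORC1, was measured at 96.1, 102 and 98.7 CPM in control and 226, 230 and 226 CPM in ENL, and rose 2.29-fold (95% interval of the log2 value 1.04 to 1.36, adjusted p = 5.66e-05). The arginine sensor gene CASTOR1 rose by 2.22 ± 0.20 (adjusted p = 0.000339), while its paralogue CASTOR2 fell by 1.33 ± 0.21 on the log2 scale (adjusted p = 0.00341). SLC38A9, a lysosomal arginine transporter that activates mTORC1, fell by 0.78 ± 0.13 (adjusted p = 0.00353). CASTOR1 shares 1262 exon bases with AC004997.1 on the same strand and CASTOR2 has near-identical copies, which makes both uncertain.

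Among 16 substrates and effectors of mTOR, 6 rose (37.5%, beside 20% of all genes tested), 1 fell (6.25%, beside 18.4%) and 9 did not pass (median 0.12). With library totals 6 rose and 3 fell (median -0.093), beside 1804 and 3996 of all 14086 genes tested (median -0.23). Without ENL library 3, 7 rose and 3 fell (median 0.19). The genes of the 4E-BP translation repressors, which bind the cap-binding protein eIF4E until mTORC1 phosphorylates them, did not all go one way: EIF4EBP1 and EIF4EBP3 rose and EIF4EBP2 fell. EIF4EBP1 rose by 0.64 ± 0.12 (adjusted p = 0.00681), from 462 ± 29.9 to 718 ± 104 CPM, and by 0.29 when length and GC content were corrected for, whereas EIF4EBP2 fell by 0.97 ± 0.08 on the log2 scale (adjusted p = 0.000287), from 75.8 ± 3.99 to 38.6 ± 1.43 CPM. EIF4EBP3 rose by 1.13 ± 0.16 (adjusted p = 0.0023), from 15.3 ± 1.12 to 33.5 ± 6.83 CPM, and shares 507 exon bases with the readthrough gene ANKHD1-EIF4EBP3. EIF4E itself, at 71.3 ± 7.94 and 63.5 ± 1.42 CPM, did not pass (-0.17 ± 0.10 on the log2 scale, adjusted p = 0.228), was at -0.080 without control library 2, and was called lower with library totals (adjusted p = 0.0222). RPS6KB1, the S6 kinase gene, varied within the groups from 19.2 to 33.1 CPM in control and from 12.1 to 23.5 in ENL (adjusted p = 0.274), and leaving out 1 library moved its log2 fold change between -0.71 and -0.18. TFEB and TFE3, lysosomal transcription factors that mTORC1 holds in the cytoplasm, rose by 1.55 ± 0.16 and 0.91 ± 0.07 (adjusted p = 0.000573 and 0.000236).

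**Figure D4:**
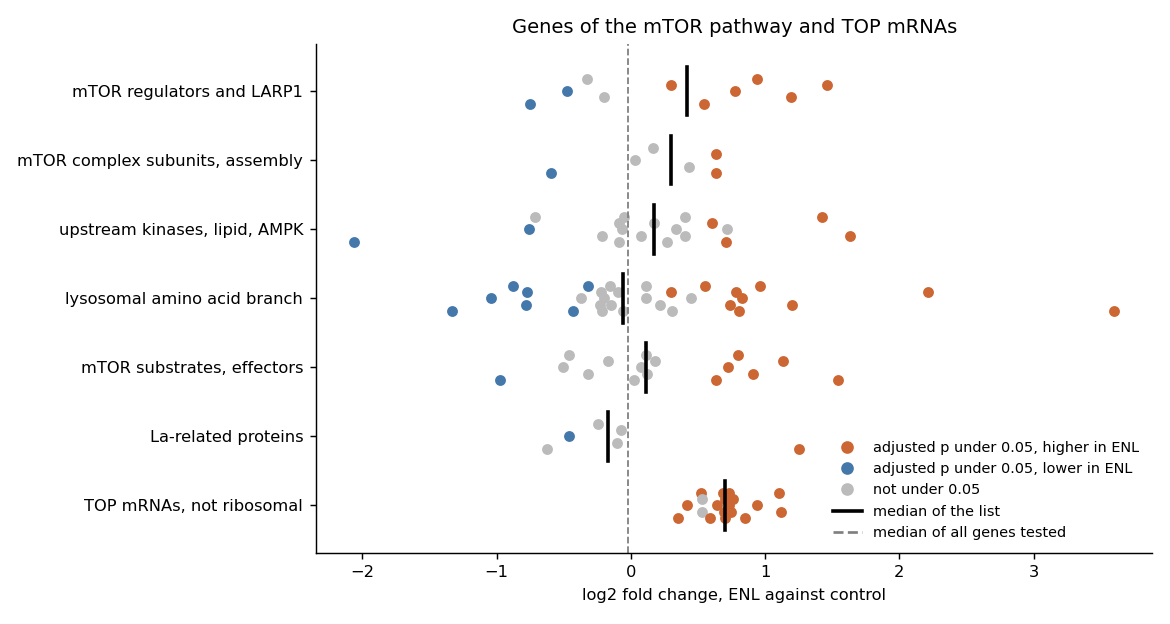
Log2 fold change, ENL against control, of every gene tested in 7 lists; colour gives the call in edgeR's test, short black lines are list medians and the dashed line is the median of all genes tested (-0.02). The pathway lists hold calls in both directions, while 17 of the 19 TOP mRNAs are called higher and 0 lower.

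LARP1 (ENSG00000155506, chromosome 5, 154712902 to 154817607, plus strand) was found at 346, 360 and 375 CPM in control and 302, 312 and 328 CPM in ENL. The groups did not overlap, but the gap between the highest ENL and the lowest control library was about the size of the steps within a group. The log2 fold change was -0.20 ± 0.07 (95% interval -0.37 to -0.03, adjusted p = 0.0685), which did not pass. It passed without ENL library 3 (-0.22, adjusted p = 0.0365), with only genes of at least 10 CPM tested (adjusted p = 0.0351) and under both other scalings above, and with length and GC content corrected for, the value was -0.062 (adjusted p = 0.316).

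Of the 6 other La-related protein genes, 1 rose (16.7%, beside 20% of all genes tested), 1 fell (16.7%, beside 18.4%) and 4 did not pass. With library totals 1 rose and 3 fell, beside 1804 and 3996 of all 14086 genes tested. LARP6, which binds collagen mRNAs, rose by 1.25 ± 0.10, from 33.6 ± 1.72 to 80.0 ± 7.01 CPM (adjusted p = 0.000204), and LARP7, which stabilises the 7SK RNA, fell by 0.46 ± 0.12 on the log2 scale (adjusted p = 0.0239), a call lost without control library 1 or 2 (adjusted p = 0.0828 and 0.0598) or ENL library 1 (0.0506) and in the test against a 1.2-fold change (0.0897). LARP1B, the closest relative of LARP1, did not pass (-0.25 ± 0.11 on the log2 scale, adjusted p = 0.111) except under the upper-quartile and library-total scalings (0.0425 and 0.0237). LARP4 ranged from 21.1 to 44.3 CPM in control and from 8.77 to 36.1 in ENL, and its log2 fold change of -0.62 ± 0.54 did not pass (adjusted p = 0.407) and lay between -1.21 (without ENL library 2) and -0.25 (without ENL library 1) with 1 library left out.

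The mRNAs that LARP1 is known for begin with a cytidine followed by pyrimidines. Of 19 TOP mRNAs other than those of ribosomal proteins, 12 had a RefSeq entry, and 10 of these had a start with C followed by C or T to a run of at least 5 bases. EEF1G and VIM had an entry but no such run. Such a start was found for 5.14% of 27305 genes in the RefSeq table and for 0 of the 8 members with an entry. The first 20 bases of these 10 mRNAs are given as DNA, 5' to 3' (GRCh38.p14), with the pyrimidine run in capitals.
EEF1A1 (chr6:73521013-73521032, minus strand): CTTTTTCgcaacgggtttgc
EEF1B2 (chr2:206159895-206159914, plus strand): CCTTTTTCCTCTCTTCagcg
EEF2 (chr19:3985444-3985463, minus strand): CTCTTCCgccgtcgtcgccg
EIF2S3 (chrX:24054956-24054975, plus strand): CTCTTTTggcaacatggcgg
EIF3F (chr11:7987337-7987356, plus strand): CTTCTTTCTCgacaagatgg
EIF4B (chr12:53006456-53006475, plus strand): CTTTTgcgttctctttccct
NAP1L1 (chr12:76084666-76084685, minus strand): CTTTTTTagcgccatctgct
NPM1 (chr5:171387849-171387868, plus strand): CTTTCCCTggtgtgattccg
RACK1 (chr5:181243887-181243906, minus strand): CTCTCTTTCactgcaaggcg
TPT1 (chr13:45341164-45341183, minus strand): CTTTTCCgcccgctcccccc

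TOP mRNAs were nearly all higher in ENL. Of the 19 on the list, 17 rose (89.5%, beside 20% of all genes tested), 0 fell (beside 18.4%) and 2 (EEF1G and EIF4B) did not pass. The 17 include VIM, used above as a mesenchymal marker. The median log2 fold change was 0.70, and 18 rose and 0 fell by DESeq2, and 17 and 0 by limma-voom. Under scaling by library totals 14 rose and 0 fell, beside 1804 and 3996 of all 14086 genes tested. EEF1A1, the elongation factor whose sequence heads the list, stood at 8007 ± 121 CPM in control and 12942 ± 570 CPM in ENL, and rose by 0.69 ± 0.08 on the log2 scale (adjusted p = 0.00113). EEF2 rose by 0.73 ± 0.08 and TPT1 by 0.85 ± 0.11 (adjusted p = 0.000817 and 0.00122), and EIF4B did not pass, with libraries from 131 to 490 CPM in ENL alone and log2 fold changes of 0.28 to 0.94 with 1 library left out. HNRNPA1 and EIF3H had the smallest adjusted p-values of the list, 0.000518 and 0.000548, with rises of 0.73 ± 0.07 and 0.76 ± 0.08. Many of these genes have processed pseudogenes that can share their reads.

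Ribosomal protein mRNAs, the main TOP group, rose too. Of 76 cytosolic ribosomal protein genes chosen by symbol, 73 rose and 0 fell (median 0.86). These genes took 7.69% to 8.10% of the counts in control libraries and 12.7%, 13.2% and 10.7% in ENL libraries 1, 2 and 3, so that ENL library 3 was nearest to control. Of all 751 tested genes outside that group whose RefSeq start has such a pyrimidine run, 30.9% rose and 10.5% fell, beside 20% and 18.4% of all genes tested. Their median log2 fold change was 0.18 against -0.02. With library totals 144 of them rose and 144 fell, while of all 14086 genes tested 1804 rose and 3996 fell. The median was then -0.030 against -0.23 for all genes. Whether the level of LARP1 has a part in any of these values was not tested.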

How the data were processed

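The members and gene lists were chosen with earlier results of these data known. The authors' deposited table gives 1 estimated count per gene and library as whole numbers, so nothing was rounded. Per the submitters' processing notes, FastQC, STAR, StringTie, DESeq2 and hg38 were used, with no role, version or annotation stated there. Of the values from 4 to 43, 70.8% to 73.1% lay at multiples of 4 or 1 above, so low values carry more counting error than their size shows. Pairs of libraries of 1 group differed by more than sampling noise (chi-square per degree of freedom 21.1 to 54.7), so all 6 were counted.

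The low-count filter was filterByExpr at 10, TMM factors set the scale, and the quasi-likelihood F test of edgeR (robust, two-sided, group as the only term) was adjusted over 14086 genes, with 0.05 as the threshold. SEs were derived from the F statistic. Versions were 4.0.16 (edgeR), 1.42.0 (DESeq2) and 3.58.1 (limma) under R 4.3.3. The procedure was tested on simulated data. Positions, lengths and exon overlaps are those of GENCODE 29 on GRCh38, the assembly that hg38 names (19553 of 19923 symbols matched). Start sequences and promoters are from RefSeq.

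Named were all 10 members, in each list the 2 called genes of lowest adjusted p in either direction, 9 pathway genes whatever their value, and the 3 genes most like each of MTOR, DDIT4 and LARP1. EEF1A1, EEF2, TPT1, EIF4B, EEF1G, EIF2S3, EIF4EBP3, RRAGA, RRAGB, RRAGC, RRAGD, FLCN, FNIP1 and FNIP2 were chosen after their values were seen. Other settings were DESeq2's size factors and Wald test, upper-quartile and total-count scaling, limma-voom, 2 filters, a replicate block, each library left out, counts divided by 4, glmTreat at 1.2-fold and a length and GC correction (loess, span 0.3). A sum with overlapping genes and 1 pathway gene of the naming rule are not reported here.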

Additional observations from a re-analysis of the deposited data

How the results depend on the processing

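The 10 members gave 169 values in 17 other settings: 144 kept their direction and their side of the threshold, 17 lost the call, 8 gained one and 0 changed direction. MTOR, RPTOR, RHEB, DEPTOR and DDIT4 kept their calls wherever they were tested, and DEPTOR was not tested with at least 10 CPM required in 3 libraries. Between 4 and 6 members were called higher, and 2 to 4 lower. The count of lower members was 4 with upper-quartile scaling and 4 with library totals alone, against 2, since both shift all genes downwards. Leaving out each library in turn gave 4 to 6 higher and 2 to 3 lower. The labels do not say whether libraries with the same replicate number share a batch. Deviations from the group means of same-numbered libraries correlated weakly, at 0.030, 0.046 and 0.080. Every library correlated best with its own number except ENL library 1, which was nearer to control library 2 (0.032). With 3 libraries per group these values cannot decide whether a batch was shared. With the replicate number as a block, 5 members were higher and 3 lower (TSC2 lost its call, adjusted p = 0.0746, and AKT1S1 gained one, 0.0366), and all genes called went from 2819 higher and 2585 lower to 2631 and 2310. Over all genes, library totals gave 1804 higher and 3996 lower, and the test against a 1.2-fold change 1963 and 1713. EIF2S3 lost its call with library totals (adjusted p = 0.0693). DEPTOR, TFEB, CASTOR1, PRR5L, DDIT4L and RRAGD had at most 478 units in any control library, so their values rest on few fragments.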

Other observations

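RRAGD, a Rag GTPase gene, was at 0.972, 0.346 and 0.576 CPM in control and 7.67, 7.69 and 7.74 CPM in ENL, and rose by 3.60 ± 0.37 on the log2 scale (adjusted p = 0.000589). Its paralogue RRAGC rose by 0.96 ± 0.10 (adjusted p = 0.000580). The folliculin complex genes FLCN and FNIP1 rose by 0.80 ± 0.09 and 0.74 ± 0.12 (adjusted p = 0.000716 and 0.00326). In all 4 the ENL libraries were above every control library, and the groups did not overlap for 54% of all genes tested. The related genes did not rise with them. RRAGA fell by 0.32 ± 0.07 on the log2 scale (adjusted p = 0.0121), and RRAGB (0.22) and FNIP2 (-0.22) did not pass (adjusted p = 0.267 and 0.347). RRAGC, FLCN and FNIP1 share exons with annotated genes on the same strand and were not summed with them. All genes of this paragraph were picked once their values had been seen.

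The genes most like MTOR over the 6 libraries, by Pearson's r of log2 CPM among 10502 others with a mean of at least 5 CPM, were ZFYVE27, TMEM43 and HIPK2 (r = 0.9997, 0.9990 and 0.9987). For DDIT4 they were MMP28, TBX2 and TKT (0.9998, 0.9996 and 0.9995), and for LARP1 GRAMD1B, NID2 and WDTC1 (0.9987, 0.9964 and 0.9955). An r above 0.95 was reached by 641, 1253 and 242 genes in turn, and all 6 points share the difference between the groups, so the likeness is a description of these libraries.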
